A study of Mus musculus with 19 samples.

Results

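Zinc finger protein genes were followed through mouse forebrain in a design that crossed loss of the ephrin receptor gene Epha4 with 6 h of sleep deprivation. The members were all rows (probe sets) of the deposited expression table for which any gene symbol of the array's annotation began with Zfp, Zkscan, Zscan, Zbtb or Znf followed by a digit. The rule found 70 of 8751 rows; after rows of identical values were counted once, 68 of 8405 distinct rows remained. They carry 65 zinc finger symbols, of which 50 are Zfp, 7 Zscan, 7 Zbtb and 1 Znf, and 3 are pseudogenes. No Zkscan symbol is among them.

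The study hybridised total RNA of forebrain from EphA4 knockout mice and their littermates to Affymetrix Mouse Gene 2.0 ST arrays, 1 sample per array, 19 arrays in all. The title of the series names its question as the part of EphA4 in sleep and in the response to sleep loss. All mice were of the Mixed BL6/10 strain and were kept in a cycle with 12 h each of light and darkness. The wild-type (WT) control group has 4 arrays and the WT sleep-deprived group 6, while the knockout (KO) control group has 4 and the KO sleep-deprived group 5. Control mice were left undisturbed, sleep-deprived mice were kept awake for 6 h, and the labels give neither age nor how the allele was made. The labels do not say whether each array came from its own animal, and the tests therefore speak of variation among these arrays, which may be technical.

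Values are log2 expression as deposited, and a difference of 1 is a factor of 2 in signal. The submitters warn that their data tables are incomplete, so a gene without a row was not analysed here and is not thereby shown to be missing from the array. Epha4 has 0 rows, so the genotype labels could not be checked on the targeted gene. Of 85 marker genes listed for forebrain regions and cell types, 2 have a row of their own (Gbx2 and Map2), so the tissue label could not be checked either. Array medians over all rows lay between 5.90 and 6.07, and correlations between arrays between 0.981 and 0.993. The arrays with the lowest limma quality weights were KO sleep-deprived replicate 5 (0.559), KO control replicate 2 (0.573) and WT sleep-deprived replicate 1 (0.623). In bulk tissue, fewer cells of a type and less RNA per cell cannot be told apart.

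A zinc finger of the classical kind is a short loop of protein folded around a zinc ion, and a row of such fingers reads the bases of DNA. Many mouse Zfp proteins also carry a KRAB domain, which recruits the corepressor Trim28 and silencing chromatin, often at retrotransposons, and their genes lie in tandem clusters of recently duplicated copies. BTB (POZ) and SCAN domains, which give Zbtb and Zscan genes their names, let such proteins pair with each other, and several Zbtb proteins shape the development of the nervous system. The prefix does not guarantee this fold: Zfp36l1 encodes an RNA-binding protein with fingers of another kind, and Zbtb8os is named for lying opposite Zbtb8 genes.

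Duplication sets how these rows can be read. Of the 68 rows, 32 carry 1 symbol and 36 carry several; 8 of the 36 name only zinc finger genes, and 20 of the 68 also name a predicted (Gm or Rik) gene. Of the 65 symbols, 22 stand on more than 1 distinct row. In the RefSeq gene table (GRCm38.p6), where 64 of the 65 symbols were found by identifier, Zfp968, Zfp965, Zfp966, Zfp967, Zfp970 and Zfp971 follow each other along chromosome 2, and 12 rows name at least 1 of them. A cluster on chromosome 4 (among others Zfp980, Zfp600, Zfp992, Zfp981, Zfp993, Zfp991, Zfp982, Zfp985, Zfp979 and Zfp534) accounts for 8 rows, the Zscan4 genes for 3, and other loci for 45.

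The start regions of the genes on which the results below turn show how alike the copies are. The RefSeq table of promoters (GRCm38.p6) has an entry for 57 of the 65 symbols, and the 250 bases before the start of 5 of them are printed 5′ to 3′ along the gene's own strand. Zfp971 (chr2:178023034-178023283, plus strand) is the reference for Zfp970 (chr2:177464492-177464741, plus strand) and Zfp967 (chr2:176520754-176521003, plus strand), and Zfp979 (chr4:147642509-147642758, minus strand) is the reference for Zfp600 (chr4:146156577-146156826, plus strand). Capitals mark bases that differ from the reference within the aligned stretch; the reference itself is all in lower case.
Zfp971: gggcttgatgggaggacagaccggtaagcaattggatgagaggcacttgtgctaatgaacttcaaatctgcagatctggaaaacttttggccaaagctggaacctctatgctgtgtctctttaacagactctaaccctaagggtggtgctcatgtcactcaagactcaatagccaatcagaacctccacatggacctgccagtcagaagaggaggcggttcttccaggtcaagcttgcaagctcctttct
Zfp970: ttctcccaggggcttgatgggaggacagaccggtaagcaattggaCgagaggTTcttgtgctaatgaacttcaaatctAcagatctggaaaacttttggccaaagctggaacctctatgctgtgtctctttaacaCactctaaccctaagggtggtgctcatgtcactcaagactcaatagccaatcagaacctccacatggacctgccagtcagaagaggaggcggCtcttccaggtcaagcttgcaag
Zfp967: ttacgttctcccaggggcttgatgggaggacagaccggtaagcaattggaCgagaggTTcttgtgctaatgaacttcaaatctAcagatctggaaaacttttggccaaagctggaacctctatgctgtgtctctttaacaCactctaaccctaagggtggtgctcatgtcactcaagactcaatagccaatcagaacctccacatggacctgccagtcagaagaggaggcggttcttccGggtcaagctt
Zfp979: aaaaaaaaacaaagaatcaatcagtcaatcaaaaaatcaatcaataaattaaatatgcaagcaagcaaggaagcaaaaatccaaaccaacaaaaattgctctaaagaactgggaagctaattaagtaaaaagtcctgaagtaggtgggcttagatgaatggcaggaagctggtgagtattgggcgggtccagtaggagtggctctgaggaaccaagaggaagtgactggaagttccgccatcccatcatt
Zfp600: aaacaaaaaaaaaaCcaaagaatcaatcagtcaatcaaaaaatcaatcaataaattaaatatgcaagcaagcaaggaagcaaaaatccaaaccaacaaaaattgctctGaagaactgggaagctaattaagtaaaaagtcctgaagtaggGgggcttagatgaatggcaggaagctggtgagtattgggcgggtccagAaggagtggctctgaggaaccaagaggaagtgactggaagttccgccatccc

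The Zfp970 stretch shares 241 aligned bases with Zfp971 and differs at 6 of them (97.5% identity), and Zfp967 differs at 6 of 236. Zfp966 (chr2:175931101-175931350, minus strand) is identical to Zfp967 over all 250 bases and is therefore not repeated. On chromosome 4, Zfp600 differs from Zfp979 at 4 of 244 bases (98.4% identity). Other copies there are less alike. Identity with Zfp979, gaps counted as differences, is 90.4% for Zfp980, 83.9% for Zfp985 and 79.0% for Zfp981. The motif CCAAT, searched on both strands, occurs in 6 of 6 chromosome 2 stretches, in 42 of 64 promoter entries of member symbols (65.6%) and in 33.8% of all 32851 entries of that length. The motif TATAAA, searched in the same way, occurs in 0 of the 6 chromosome 2 stretches and in 4 of 4 entries of Zscan4 genes, against 9 of 64 entries of member symbols and 12.4% of all. Near-identical copies have related flanks, so these stretches are not independent of each other.

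Across the family, levels in the 4 groups lay close together. The median over the 68 rows, taken per array and averaged over the arrays of a group, was 7.25 ± 0.06 (SD, n = 4) in WT controls and 7.25 ± 0.05 (SD, n = 6) in sleep-deprived WT mice. In KO mice it was 7.25 ± 0.12 (SD, n = 4) in controls and 7.22 ± 0.09 (SD, n = 5) after sleep deprivation. These differences are smaller than the spread between arrays. By their mean over all arrays, 19 of the 68 rows lay below the median of the array medians and 12 lay under 5.

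No zinc finger row passed limma's test at an adjusted p of 0.05 (Benjamini-Hochberg over all 8751 rows) in any of 7 comparisons. For sleep deprivation in WT mice, 0 of 68 members were called, where 0% of all rows were. Under an unadjusted p of 0.05 were 2 members (2.94%), against 7.80% of all rows, and the smallest adjusted p was 0.577. For sleep deprivation in KO mice, limma called 0 of 68 against 0.263% of all rows, with a smallest adjusted p of 0.194. Under an unadjusted p of 0.05 were 8 members (11.8%), the same share as over all rows (11.8%); the 8 had the higher sign, as had 662 of 1030 such rows of the whole table. With sleep deprivation averaged over the genotypes, 0 of 68 were called by limma against 0.263% of all rows, and 3 members (4.41%) were under an unadjusted p of 0.05, against 7.93% of all rows.

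The comparisons of genotype gave the same count. Between KO and WT controls, limma called 0 of 68 members against 0% of all rows, and 2 (2.94%) were under an unadjusted p of 0.05, against 5.44% of all rows. Between KO and WT mice after sleep deprivation, 0 of 68 were called by limma against 1.68% of all rows. Here 4 (5.88%) were under an unadjusted p of 0.05, against 15.4% of all rows, and the smallest adjusted p of any member in any comparison was 0.081. With genotype averaged over conditions, limma called 0 of 68 against 0.0114% of all rows, and 4 members were under an unadjusted p of 0.05, against 8.73% of all rows. For the interaction, which is the sleep deprivation difference in KO minus that in WT, limma called 0 of 68 against 0.0686% of all rows, and 5 members (7.35%) were under an unadjusted p of 0.05, against 11.5% of all rows. With so few rows called in the whole table, a count of 0 among 68 is close to the background.

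The sizes of the differences were small. Over the 68 members they ran from -0.24 to 0.23 on the log2 scale for sleep deprivation in WT mice, with a median of -0.03 against 0.02 over all rows, and 25 of 68 had the sign of higher values. In KO mice the same difference ran from -0.18 to 0.39, with a median of 0.04 against 0.01 over all rows, and 47 of 68 had the sign of higher values. After quantile normalization of the arrays the median was 0.00 and the count 35 of 68, and after median centring 0.03 and 45 of 68. Averaged over genotypes the difference ran from -0.13 to 0.16, with a median of 0.01 against 0.02. At its median, the family differed by hundredths of a log2 unit in either genotype.

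For KO minus WT, the range was -0.40 to 0.23 in controls, with a median of -0.05 against 0.01 over all rows and 23 of 68 of higher sign, and -0.22 to 0.29 after sleep deprivation, with a median of 0.03 against 0.01 and 40 of 68 of higher sign. Averaged over conditions it was -0.23 to 0.16, with a median of -0.01 against 0.01 over all rows. The interaction ran from -0.27 to 0.45, with a median of 0.07 against -0.00 over all rows, and 48 of 68 members had the higher sign. After quantile normalization the member median of KO minus WT after sleep deprivation was -0.01 with 30 of 68 of higher sign, so its sign turned, and that of the interaction was 0.02 with 37 of 68. After median centring the 2 medians were 0.01 with 36 of 68 and 0.08 with 53 of 68. These comparisons share groups of arrays, so their values are given side by side and none is a check on another. The 12 chromosome 2 rows described below vary together and weigh on these counts. Over the 45 members outside the 3 clusters, 17 had the higher sign for sleep deprivation in WT mice (median -0.03) and 27 in KO mice (0.02). For genotype it was 17 in controls (-0.02) and 21 after sleep deprivation (-0.01), and for the interaction 29 (0.04). Over all rows the shares were 55.7%, 53.4%, 54.6%, 52.7% and 49.5% in the same order.

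The intervals give the range of each difference row by row, without adjustment for the number of rows tested. The 95% interval lay within 0.5 log2 units of 0 on both sides for 66 of 68 members for sleep deprivation in WT mice, for 62 in KO mice, for 63 for genotype in controls, for 67 for genotype after sleep deprivation and for 54 for the interaction. On simulated data with these groups and 8751 rows, a difference of 0.5 was recovered for 71% of rows in the first of these comparisons, 65% in the second, 60% in the third, 75% in the fourth and 47% in the interaction. A difference of 0.25 was recovered for 15%, 15%, 8%, 27% and 2% of rows in the same order. In each simulation, 100 rows each were given differences of 0.25, 0.5 and 1, drawn from the whole table and not from the members. There limma called 140 to 209 rows in these comparisons, where it called 0 to 147 in the real table. The adjusted cutoff depends on how many rows differ, so these shares need not hold for the members.

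**Figure D1:**
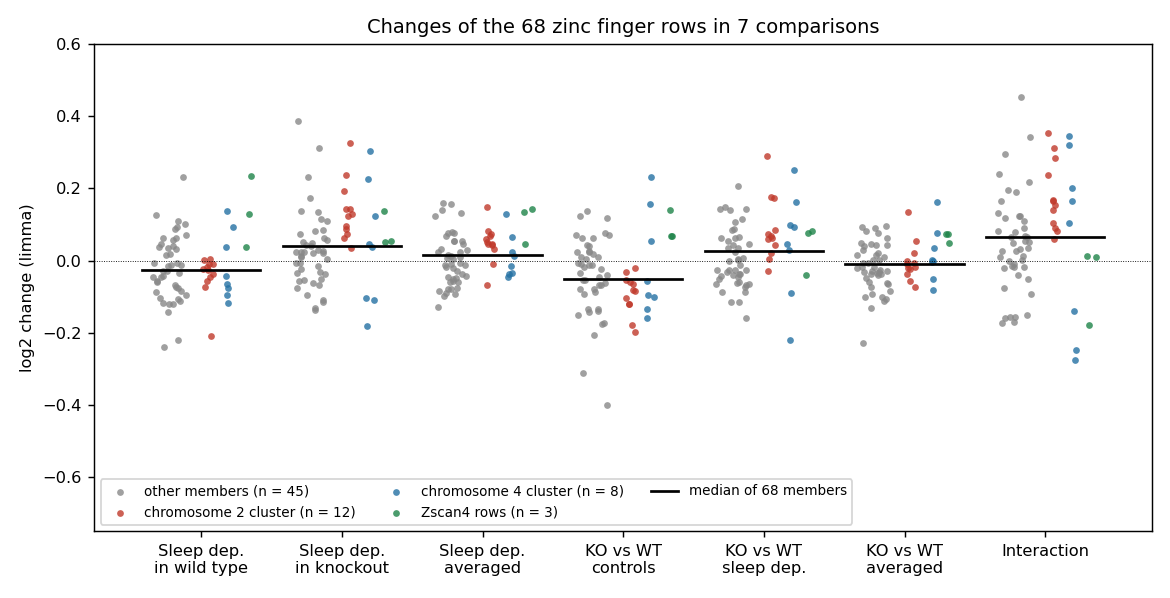
Each point is the fitted log2 change of 1 of the 68 zinc finger rows in 1 of 7 comparisons (horizontal axis), coloured by cluster, and black bars are medians over the 68 rows. Medians lie between -0.05 and 0.07, and the 12 chromosome 2 rows sit above 0 in the knockout and interaction columns and below 0 for genotype in controls, which after quantile normalization holds for 8, 7 and 10 of the 12. After median centring the same holds for all 12 in each of these columns.

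The chromosome 2 copies varied together from array to array. All 12 rows had higher values in sleep-deprived than in control KO arrays (median difference 0.13) and none had higher values in KO than in WT controls (median -0.08); after quantile normalization of the arrays the counts were 8 and 2 of 12, with medians of 0.04 and -0.04. For KO minus WT after sleep deprivation 11 of 12 had the higher sign (median 0.07), but 5 of 12 after quantile normalization (median -0.00), and for the interaction 12 of 12 (median 0.16), but 7 of 12 after it (median 0.05). For sleep deprivation in WT mice, 2 of 12 had the higher sign, with a median of -0.03, and 4 of 12 after quantile normalization, with a median of -0.01. Under an unadjusted p of 0.05 were 3 of the 12 rows for sleep deprivation in KO mice (25%, against 11.8% of all rows) and 2 for genotype after sleep deprivation (16.7%, against 15.4%), and limma called none. Median centring of the arrays weakened these signs less than quantile normalization did. It left 12 of 12 of higher sign for sleep deprivation in KO mice (median 0.12) and 0 of 12 for genotype in controls (-0.12). For the interaction the count was then 12 of 12 (0.18), and for genotype after sleep deprivation 10 of 12 (0.05). For sleep deprivation in WT mice it was 0 of 12 (-0.05).

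Those 12 rows are not independent measurements. They share symbols, and the deviations of an array from its group mean correlated between rows with a median r of 0.80 (range 0.36 to 0.96, 66 pairs of rows, 19 arrays), and r was over 0.5 in 62 of 66 pairs. The same median was 0.06 over 28 pairs of chromosome 4 rows (range -0.62 to 0.49), 0.29 over 3 pairs of Zscan4 rows, 0.11 over 990 pairs of the other members and 0.02 over all distinct rows of the table. The row that names Zfp971 with Gm14405 followed the other chromosome 2 rows with a median r of 0.60, the row of Zfp970 and Zfp971 alone with 0.69, the row of Zfp966, Zfp967, Zfp968 and Zfp971 with 0.54, and the rows that name 6 or more genes with 0.86 to 0.90, except 1 that names Zfp971 with predicted genes (0.80). All these rows come from the same arrays, and whether rows share probes was not tested.

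**Figure D2:**
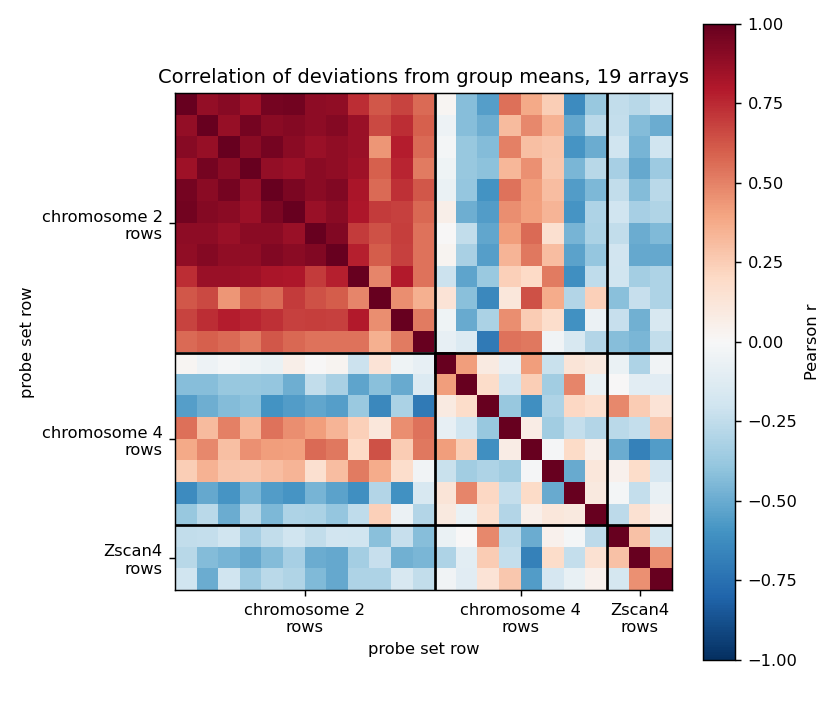
Pearson correlations, over 19 arrays, of the deviations from group means for 23 rows in 3 clusters, with red for positive and blue for negative values; rows and columns are in the same order. The 12 chromosome 2 rows form 1 block (median r 0.80), while the chromosome 4 rows (0.06) and Zscan4 rows (0.29) do not.

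Single arrays weigh on this block. The median over the 12 rows was highest in KO sleep-deprived replicate 1 (10.92), WT sleep-deprived replicate 3 (10.87) and KO sleep-deprived replicate 3 (10.80), whose medians over all rows were 5.95, 5.92 and 5.94. It was lowest in KO control replicate 2 (10.46) and in WT sleep-deprived replicates 4 (10.56) and 1 (10.58). The medians of those arrays over all rows were 5.94, 5.96 and 6.04. Without KO control replicate 2, the median difference of the 12 rows for sleep deprivation in KO mice was 0.07 and 10 of 12 had the higher sign; for KO minus WT in controls the median was then -0.03 with 1 of 12 of higher sign, and for the interaction 0.10 with 12 of 12. For KO minus WT after sleep deprivation, the median was 0.03 without KO sleep-deprived replicate 1, and 0.04 both without WT sleep-deprived replicate 1 and without replicate 4, with 9 of 12 of higher sign each time. For sleep deprivation in WT mice, the median was -0.00 with 6 of 12 of higher sign without WT sleep-deprived replicate 1 and likewise without replicate 4, and -0.06 with 0 of 12 without replicate 3.

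The row of Zfp971, an uncharacterised zinc finger gene, and the predicted gene Gm14405 came closest to the threshold. Its log2 expression was 8.51, 8.46, 8.42 and 8.48 in WT controls, and 8.38, 8.43, 8.36 and 8.60 in KO controls. In sleep-deprived KO mice it was 8.72, 8.76, 8.72, 8.56 and 8.64, and in sleep-deprived WT mice it ran from 8.27 over a median of 8.31 to 8.80. All 5 sleep-deprived KO arrays lay above 5 of the 6 sleep-deprived WT arrays, and 1 WT array, replicate 3, lay above them all. KO exceeded WT after sleep deprivation by 0.29 ± 0.08 (SE), a factor of 1.22, with a 95% interval of 0.12 to 0.46 and limma's adjusted p of 0.081.

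Without WT sleep-deprived replicate 3 the difference was 0.37 with an adjusted p of 0.0019, so this member passed and 298 rows of the whole table were called in place of 147. Over all alternatives its adjusted p ran from 0.0019 to 0.21. The interaction for this row was 0.31 (adjusted p = 0.36) and the sleep deprivation difference in KO mice 0.24 (adjusted p = 0.31). In WT mice that difference was -0.07. The same replicate was also the highest of its group in the row of Zfp970 and Zfp971 (8.58) and in the row that names 11 genes from Zfp966 to Zfp971 (10.89).

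Zfp970 and Zfp971 share a row without any other gene. It read 8.37, 8.37, 8.38 and 8.41 in WT controls and 8.33, 7.96, 8.32 and 8.19 in KO controls, so all 4 KO controls lay below all 4 WT controls. After sleep deprivation the KO arrays read 8.71, 8.71, 8.45, 8.37 and 8.42, all above the KO controls, and the WT arrays ran from 8.12 over a median of 8.39 to 8.58. The sleep deprivation difference was 0.33 ± 0.10 (SE) in KO mice, a factor of 1.25, with limma's adjusted p of 0.19, and -0.03 in WT mice. The interaction was 0.35 ± 0.14 (SE) with an adjusted p of 0.36, and neither passed the test. In the row of 11 symbols, KO exceeded WT after sleep deprivation by 0.17 (adjusted p = 0.27) and sleep deprivation in KO mice gave 0.19 (adjusted p = 0.38).

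The share of rows whose groups did not overlap lay near that of the whole table. For sleep deprivation in KO mice they were 3 of 68 (Zbtb20, Zfp970 with Zfp971, and Zfp979), where 4.39% of all rows had groups apart. For genotype in controls they were 4 of 68 (Zfp820, Zfp507, Zfp970 with Zfp971, and another row of Zfp971) against 3.68%, for genotype after sleep deprivation 1 of 68 (Zfp507) against 2.05%, and for sleep deprivation in WT mice 0 of 68 against 1.63%.

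**Figure D3:**
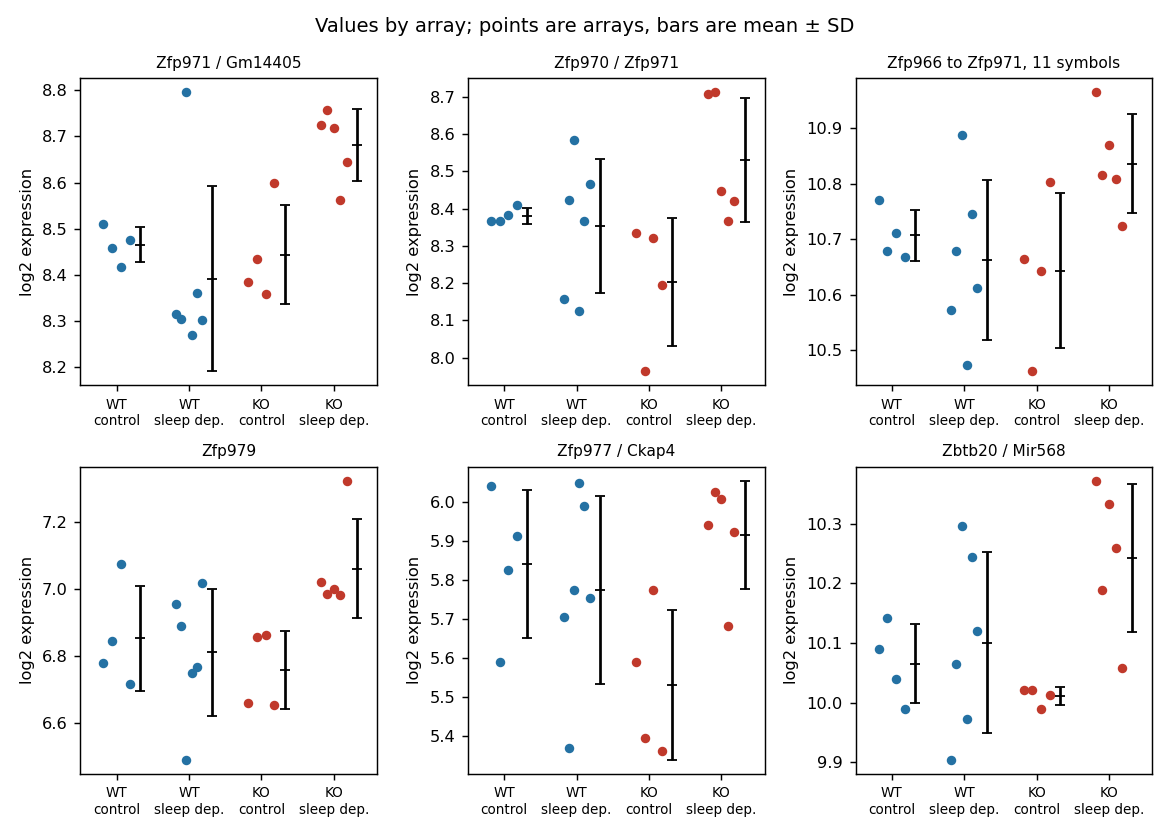
Log2 expression of 6 rows in each array (points) by group, with the mean ± SD beside them; vertical axes differ between panels and do not start at 0. The sleep-deprived KO arrays of Zfp979, Zbtb20 and the row of Zfp970 and Zfp971 lie above all KO controls, and 1 sleep-deprived WT array stands at 8.80 in the Zfp971 panel, above its whole group.

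On chromosome 4 the rows differed from each other. Of 8 rows, 5 had the higher sign for sleep deprivation in KO mice (median 0.04), 3 in WT mice (-0.05) and 6 for genotype after sleep deprivation (0.07). Zfp979, whose start region is printed above, read 6.78, 6.85, 7.08 and 6.72 in WT controls and 6.66, 6.86, 6.86 and 6.65 in KO controls on probe set 17432757, which carries no other symbol. Sleep-deprived KO arrays read 7.020, 6.984, 6.999, 6.982 and 7.323, all above the KO controls, while sleep-deprived WT arrays ran from 6.49 over a median of 6.83 to 7.02.

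That row gave a sleep deprivation difference of 0.30 ± 0.11 (SE) in KO mice, with limma's adjusted p of 0.24, and KO minus WT of 0.25 ± 0.10 (SE) after sleep deprivation, with an adjusted p of 0.20. A second row (17421511) names Zfp979 together with Zfp600, Zfp980, Zfp981 and Rex2, and gave 0.12 and 0.10 for the same comparisons. The third (17432713), where Zfp979 is again the only zinc finger symbol, has a mean of 2.78 and gave -0.10 and 0.09. Deviations from group means correlated between the 3 pairs of rows with r of -0.29, -0.38 and 0.17 over 19 arrays, so the rows of this gene did not track each other. Zfp982 had 0.23 for sleep deprivation in KO mice, the highest among the members outside the named set, and an interaction of 0.32, while Zfp534 had -0.18 and -0.27; neither passed.

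**Figure D4:**
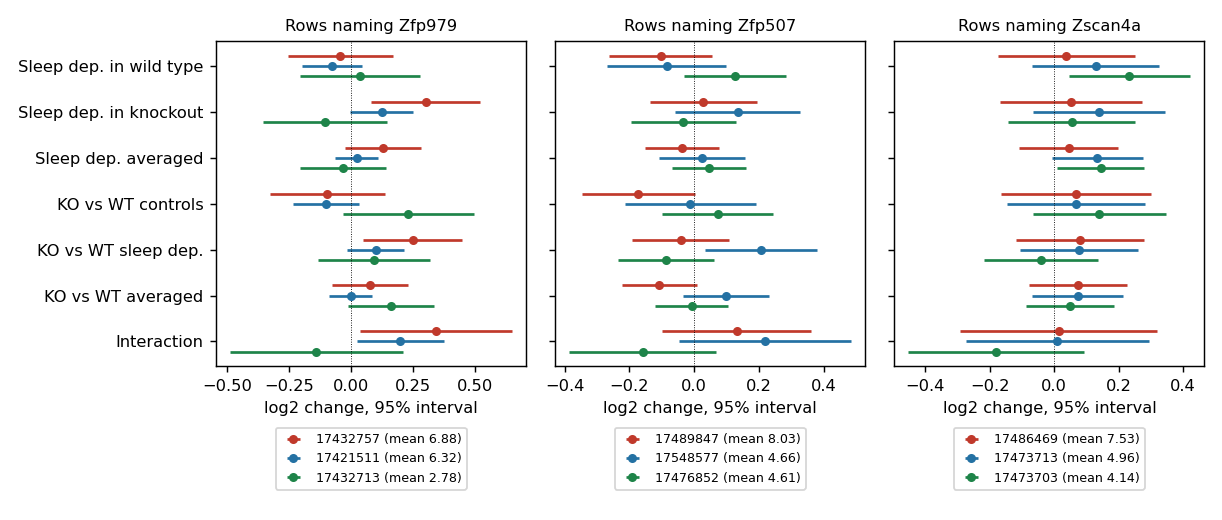
Fitted log2 changes with 95% intervals in 7 comparisons (vertical axis) for the 3 rows that name Zfp979, Zfp507 or Zscan4a, with each row's mean log2 expression in the legend. Signs differ between rows of the same gene, as for Zfp979 in sleep-deprived against control KO mice (0.30, 0.12 and -0.10).

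Zfp507 gave the same picture on 3 rows of its own. On probe set 17489847 it read 8.09, 8.20, 8.11 and 8.16 in WT controls against 8.04, 7.82, 7.97 and 8.04 in KO controls, which do not overlap, and KO minus WT was -0.17 ± 0.08 (SE) with limma's adjusted p of 0.87. On 17548577, with a mean of 4.66, that difference was -0.01, while after sleep deprivation the KO arrays (4.71, 4.96, 4.75, 4.71 and 4.78) lay above all WT arrays (4.37 over a median of 4.57 to 4.70), with 0.21 ± 0.08 (SE) and an adjusted p of 0.23. The third row, 17476852, had -0.09 there. Deviations correlated between the rows with r of -0.61, 0.23 and -0.12. Among other genes on several rows, the pairs of Zfp640 gave r of -0.46, 0.39 and -0.14, and those of Zbtb11 and Zbtb38 0.42 and 0.20.

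Of the remaining Zfp genes, Zfp977 shares its row with Ckap4, which encodes a membrane protein of the endoplasmic reticulum and is no zinc finger gene. The row read 6.04, 5.59, 5.82 and 5.91 in WT controls, 5.59, 5.39, 5.77 and 5.36 in KO controls, and 5.94, 6.02, 6.01, 5.68 and 5.92 in sleep-deprived KO mice. Sleep-deprived WT arrays ran from 5.37 over a median of 5.76 to 6.05, so every other group overlaps them. It held the largest fitted differences of the family for sleep deprivation in KO mice, 0.39 ± 0.13 (SE) with limma's adjusted p of 0.21, and for the interaction, 0.45 ± 0.18 (SE) with an adjusted p of 0.33.

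Zfp820 was the member with the lowest value in KO relative to WT controls. It read 4.25, 4.55, 4.48 and 4.23 in WT controls and 4.04, 4.09, 3.80 and 3.98 in KO controls, without overlap, a difference of -0.40 ± 0.15 (SE), a factor of 0.758, with limma's adjusted p of 0.87. After sleep deprivation the KO arrays (3.95 to 4.61) overlapped the WT arrays (4.05 to 4.80), and the difference was -0.06. Zfp39 had -0.13 ± 0.05 (SE) for KO minus WT averaged over conditions, with an adjusted p of 0.44. Its arrays ran from 7.72 to 8.02 in WT controls, from 7.61 to 7.85 in sleep-deprived WT, from 7.63 to 7.80 in KO controls and from 7.57 to 7.71 in sleep-deprived KO mice, so the genotypes overlap in both conditions. Zfp882 had -0.10 in the same comparison (adjusted p = 0.60).

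In WT mice the smallest p for sleep deprivation belonged to Zfp963. It read 6.94, 6.90, 6.87 and 7.06 in controls and ran from 6.54 over a median of 6.70 to 6.90 after sleep deprivation, and the groups overlap. The difference was -0.22 ± 0.08 (SE) with limma's adjusted p of 0.58, against 0.02 in KO mice, and the interaction of 0.24 had an adjusted p of 0.44. Zfp120 and Zfp937 had -0.24 (adjusted p = 0.66) and 0.23 (adjusted p = 0.67) in WT mice and 0.06 and 0.08 in KO mice. With the genotypes averaged, Zfp341 had -0.13 (adjusted p = 0.64).

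The Zscan4 genes, known for their bursts of expression in embryonic stem cells and the early embryo, stand on 3 rows. A row naming 6 of them (17473703), with a mean of 4.14, read 4.00, 3.91, 4.02 and 4.03 in WT controls and ran from 4.00 over a median of 4.23 to 4.45 in sleep-deprived WT mice. The difference was 0.23 ± 0.09 (SE) with limma's adjusted p of 0.60, against 0.05 in KO mice. The other 6-gene row (17473713) had 0.13 in WT and 0.14 in KO mice, and the row of Zscan4a alone had 0.04 and 0.05. All 3 rows had the higher sign after sleep deprivation in both genotypes, and none passed. Of all rows 55.7% had that sign in WT and 53.4% in KO mice. Without the 3 arrays of lowest weight, 3 of 3 Zscan4 rows had it in WT and 2 of 3 in KO mice. The rows name the same genes, so their signs are not independent. Zscan26, the remaining SCAN member, had -0.02 in WT and 0.17 in KO mice.

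The BTB members, Zbtb8os left aside, stand on 7 rows, of which 6 had the higher sign for sleep deprivation in WT mice and 4 in KO mice. Zbtb20, a repressor needed for the formation of the hippocampus, shares its row with Mir568, a microRNA gene within it. It read 10.09, 10.14, 10.04 and 9.99 in WT controls, 10.02, 10.02, 9.99 and 10.01 in KO controls, and 10.37, 10.19, 10.33, 10.26 and 10.06 in sleep-deprived KO mice. The last group lies wholly above the KO controls, and the sleep-deprived WT arrays, from 9.90 over a median of 10.09 to 10.30, overlap both. The difference was 0.23 ± 0.08 (SE) in KO mice with limma's adjusted p of 0.26, 0.03 in WT mice, and 0.13 ± 0.06 (SE) averaged, with an adjusted p of 0.55. Over all alternatives the difference in KO mice ran from 0.13 to 0.28, with limma's adjusted p from 0.12 to 0.48.

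Zbtb11, a zinc finger repressor whose neighbour Rpl24, a ribosomal protein gene, is named on both of its rows, had the smallest p when the genotypes were averaged. On probe set 17326250 it read 9.47, 9.41, 9.39 and 9.44 in WT controls, 9.41, 9.34, 9.29 and 9.46 in KO controls, and 9.58, 9.60, 9.54, 9.42 and 9.43 in sleep-deprived KO mice, and it ran from 9.44 over a median of 9.53 to 9.69 in sleep-deprived WT mice. The groups overlap at their edges in both genotypes. The averaged difference was 0.12 ± 0.05 (SE) with limma's adjusted p of 0.48, and the other row (17326241) had -0.05. Zbtb38, which binds methylated DNA, had -0.11 for KO minus WT averaged over conditions on 1 row (limma's adjusted p = 0.54), which carries more than 1 symbol. The other Zbtb38 row had -0.03.

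The other 48 members, among them Zfp36l1, Zfp91, Zfp106, Zfp184, Zfp644, Zfp664, Zbtb22 and the shared row of Zbtb26 and Zbtb6, stayed within -0.21 to 0.14 for sleep deprivation in WT mice and -0.18 to 0.23 in KO mice. For genotype they lay within -0.20 to 0.23 in controls and -0.22 to 0.16 after sleep deprivation, and for the interaction within -0.27 to 0.32. Their smallest adjusted p in any comparison was 0.31.

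Few partners of these proteins have a row of their own; genes that stand only on rows shared with other symbols were left out of the values here. Of 27 listed KRAB corepressor and heterochromatin genes, 2 have a row of their own, and limma called 0 of 2 in every comparison: Cbx3, a heterochromatin protein, and Chd3, a remodeller of the NuRD complex, which had -0.23 ± 0.08 (SE) for sleep deprivation in KO mice with an adjusted p of 0.25. Of 13 listed BTB corepressors, 0 have a row of their own and 1 stands on a shared row. Of 136 other factors with classical fingers 7 have a row of their own (13 with shared rows), and limma called 0 of 7 in every comparison; Hic2 (0.26), Zhx1 (-0.18) and Zic5 (0.15, genotype averaged over conditions) had the smallest p, the first 2 for genotype in controls. Of 50 listed RNA-binding zinc finger genes, Mbnl2 and Zc3h6 have a row of their own (4 genes with shared rows) and were not called.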

How the data were processed

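Deposited values are log2 expression for 8751 rows and 19 arrays; RMA, oligo and limma are named in the submitters' processing notes without version, role or order, and the genome build is not given in the sources used here. Array intensities before summary were not used, so detection above background could not be judged row by row, and precision is limited by how many arrays each group has. Gene symbols come from the array's platform annotation: 1308 rows carry 1 symbol, 1178 several, and 6265 are unnamed here.

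Members and gene lists were chosen with earlier results of these data known. limma 3.58.1 (R 4.3.3) was fitted with lmFit and eBayes to 4 group means over all arrays and rows, with Benjamini-Hochberg adjustment over all rows and a threshold of 0.05; the fit was tested on simulated data. Named are the 6 members with the smallest p in each averaged comparison and the 4 in each of the others, members on several rows, and up to 3 genes of each list. A list of 34 genes, made for activity-induced factors but also holding stress and glucocorticoid-responsive genes, had 1 gene with a row of its own: Fkbp5, a glucocorticoid-induced co-chaperone, which was called for sleep deprivation in knockout mice (0.49) and averaged over genotypes (0.42, adjusted p = 0.0065). In WT mice the difference of Fkbp5 was 0.34 (limma's adjusted p = 0.30), and its interaction was 0.15 (adjusted p = 0.69). Neither was called. Alternatives were an intensity trend with a robust prior, array weights, a filter on dim rows, rows with 1 symbol, identical rows once, quantile normalization, median centring, only the arrays compared, a replicate block, a threshold of 0.1, leaving out each array, and, chosen after seeing the data, leaving out 3 arrays of low weight. Promoters were aligned with Biopython 1.88 and figures drawn with matplotlib 3.10.9.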

Additional observations from a re-analysis of the deposited data

Results flagged for a closer look

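Dixon's test marked 1 array as far from the rest of its group in 5 of 80 groups (20 named rows in 4 groups), where chance marks about 1 in 20. Zfp971 with Gm14405 read 8.80 in WT sleep-deprived replicate 3, and the nearest of the other 5 arrays read 8.36. Zfp979 (probe set 17432757) read 7.32 in KO sleep-deprived replicate 5, with the nearest at 7.02. Zfp937 read 5.26 in KO sleep-deprived replicate 3, with the nearest at 5.54. Zfp341 read 6.47 in KO control replicate 4, with the nearest at 6.26. The 6-gene Zscan4 row 17473713 read 4.97 in WT control replicate 4, with the nearest at 4.83.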

How the results depend on the processing

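The count of members called stayed at 0 in every alternative run for 6 of the 7 comparisons. The exception was KO versus WT after sleep deprivation, with 1 member at a threshold of 0.1 and 0 to 1 when single arrays were left out, the 1 being Zfp971 with Gm14405 without WT sleep-deprived replicate 3. No member median moved by more than the spread between arrays (0.084, pooled SD within groups). Every member median is itself smaller than that spread, so this mark could not catch a median that vanished or turned. For example, the median of KO minus WT after sleep deprivation went from 0.03 to -0.01 with quantile normalization and was counted as unmoved. Of 886 alternative values of the 32 named differences, 885 kept their direction and side of the threshold, 1 became significant and 0 reversed. A value that stayed uncalled with the same sign is counted as kept however far its size moved. Deviations of same-numbered arrays of different groups correlated with r of -0.22 to 0.08 (25 pairs, 0 over 0.1). For differently numbered arrays r was -0.20 to 0.30 (109 pairs, 14 over 0.1). Same-numbered arrays were thus no more alike than others, which cannot show that the samples were unpaired. With the replicate number as a block limma called 0 members in each of the 7 comparisons. The filter on dim rows kept 53 of the 68 members; a row it removed, and a row with several symbols where only rows with 1 symbol were tested, has no value there.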
